A study of Arabidopsis thaliana with 18 samples.

Results

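In Arabidopsis seedlings 146 nuclear genes had more mRNA in the mutant ecap-2 than in wild type before jasmonic acid (JA) and again after 1 and 3 h on it. They were chosen from 22209 listed genes by their levels in FPKM, fragment counts scaled to transcript length and to the mapped fragments of the library. At each of the 3 times the lowest ecap-2 library had to reach at least 1.5 times the highest wild type (WT) library, and the ecap-2 mean over 9 libraries had to be at least 3 FPKM. Organelle genes, the EARLI1 gene cluster and 9 genes named singly, among them the late anthocyanin genes, were left out, which removed 16 genes that passed the thresholds. Because the genotype difference chose the genes, it is described below without a test. What the choice did not use was the position of the genes, their sequence and their neighbours. Changes with JA within a genotype were not a criterion, but the mean over 9 libraries includes 6 from JA plates, and 14 genes with a 0 h mean under 3 FPKM in ecap-2 met the level threshold only through their levels on JA.

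JA is a hormone of wounding and defence whose active conjugate triggers the destruction of JAZ repressors, proteins that hold back MYC transcription factors with the help of TOPLESS-type co-repressors. ECAP is named in the title of the series as an adaptor between JAZ repressors and the co-repressor TPR2. The genes described here stood apart between the genotypes also without JA, which their choice required. Among them are genes of secreted wall proteins, which stiffen or loosen the plant cell wall, and of enzymes of specialised metabolism, which make small molecules such as triterpenes and acylated phenolics.

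RNA was sequenced from whole seedlings of ecap-2 and of Col-0 WT, 6 days old, grown on sucrose medium in long days and moved to plates with 50 µM JA for 0, 1 or 3 h. The 6 groups were sampled in 3 libraries each, and the 0 h groups are labelled untreated. The labels do not describe the allele. Mock-treated seedlings at 1 or 3 h were not analysed here, so effects of JA and of the move to new plates cannot be told apart. The labels do not name separate cultures for the replicates, and the spread that p-values rest on may therefore be technical. AT3G58110, taken as ECAP from general knowledge, was listed at 2.34 to 2.89 FPKM in the 9 ecap-2 libraries and at 12.3 to 16.1 FPKM in the 9 WT libraries.

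Summed FPKM over all genes ran from 760383 to 912834 in ecap-2 and from 687996 to 765209 in WT, and depth relative to 1 WT library, estimated from genes of low FPKM, from 0.920 to 1.27 in ecap-2 and from 0.732 to 1.06 in WT. The read depth itself is unknown. After rescaling every library to a common total, the median genotype difference of all tested genes was -0.11 at 0 h, -0.10 at 1 h and -0.20 at 3 h on the log2(FPKM + 1) scale, and 86 genes passed the thresholds. Each of the 146 stayed higher in ecap-2 at all 3 times under that and 3 other scalings. The choice made this all but certain, since it asked for at least 1.5 times between the libraries at each time. In whole seedlings, fewer cells of a type and less RNA per cell cannot be told apart. Of 6 photosynthetic leaf markers 3 were listed, and their summed level was 26016 to 32886 FPKM in ecap-2 and 16799 to 21882 FPKM in WT. That of 12 root markers was 2809 to 5405 FPKM in ecap-2 and 2267 to 4282 FPKM in WT over all times. Within each time the root sums of ecap-2 and WT, as listed and without rescaling, did not overlap. They were 2809 to 3025 and 2267 to 2434 FPKM at 0 h, and 2999 to 3230 and 2366 to 2797 FPKM at 1 h. At 3 h they were 4688 to 5405 and 4076 to 4282 FPKM. The summed FPKM over all genes at 3 h was 853858 to 912834 in ecap-2 and 746650 to 765209 in WT. As shares of these totals the root sums of the genotypes did not stay apart at 3 h. The summed level of 4 guard cell markers was 31.6 to 35.6 FPKM in ecap-2 and 38.5 to 48.0 FPKM in WT. For 5 markers of dividing cells it was 42.5 to 52.8 FPKM in ecap-2 and 52.7 to 63.1 FPKM in WT. No marker was at 0 in every library, and the part of tissue makeup in the levels of the 146 genes was not tested. None of the markers belongs to the 146, which says little, as 0.661% of nuclear genes passed the choice.

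For most of the 146 genes the difference was moderate. The median gene had 28.2 FPKM in ecap-2 and 11.2 FPKM in WT, as means over 9 libraries, and the median ratio of these means was 2.51. In 102 genes the ratio lay under 3, in 44 at 3 or more, in 14 at 5 or more and in 6 at 10 or more. The median difference on the log2(FPKM + 1) scale was 1.11 at 0 h, 1.15 at 1 h and 1.28 at 3 h, where the median of all tested genes was -0.00, -0.02 and 0.01. In 96 genes the lowest of the 9 ecap-2 libraries also exceeded the highest of the 9 WT libraries, as did 5.72% of all tested genes, a separation that follows in large part from the choice. Of 22090 nuclear genes open to the choice, 0.661% passed it.

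**Figure D1:**
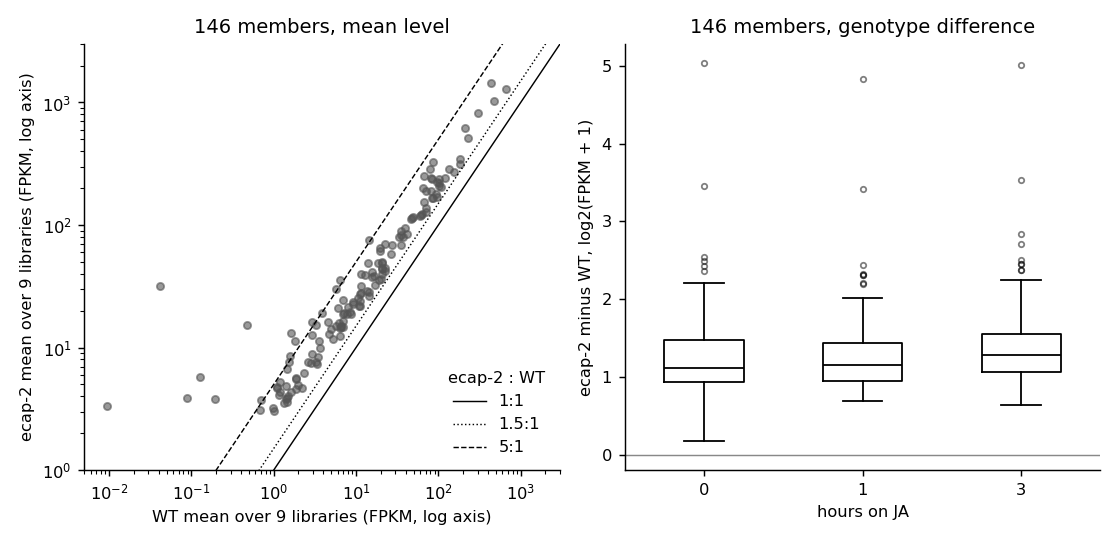
Left, mean FPKM over 9 libraries in ecap-2 (vertical axis) and in WT (horizontal axis) for each of the 146 genes, log axes, with lines at ratios of 1, 1.5 and 5. Right, their genotype difference, ecap-2 minus WT, at each time (box, quartiles and median; whiskers to 1.5 times the interquartile range; points beyond them single genes). Most genes lie between the 1.5 and 5 lines, 6 stand far above the 5 line, and the medians are 1.11, 1.15 and 1.28.

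The thresholds lie within a continuous range. AT1G65510, AGP9 and HB34 passed with a smallest ratio of lowest ecap-2 to highest WT library of 1.502, 1.506 and 1.507, while AT4G18400, EXT10 and PMEPCRF just missed with 1.499, 1.495 and 1.493. Just inside the level threshold lay CNI1, AT1G34580 and AT5G39090 with ecap-2 means of 3.03, 3.11 and 3.23 FPKM. Just outside it lay RLP19, AIG1 and AT2G28780 with 2.87, 2.80 and 2.80 FPKM.

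A group of 6 genes was nearly silent in WT, with no WT library reaching 1 FPKM. AT1G75945, a gene of unknown function, had 37.1, 35.8 and 28.7 FPKM at 0 h, 24.7, 33.1 and 30.6 FPKM at 1 h and 34.1, 28 and 32.0 FPKM at 3 h in ecap-2. In WT it was listed at 0 in 7 of 9 libraries and at 0.177 and 0.197 FPKM in the others. The ecap-2 libraries were thus all high and close together, and JA moved the gene in neither genotype (adjusted p of limma 0.24 and 0.52 in ecap-2 at 1 and 3 h, 0.97 and 0.64 in WT).

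AT4G07820, which encodes a secreted CAP-domain protein of the family that includes pathogenesis-related PR-1, had 16.5, 18.7 and 15.1 FPKM at 0 h, 12.9, 13.9 and 13.6 FPKM at 1 h and 21.4, 14.4 and 12 FPKM at 3 h in ecap-2. Its 9 WT libraries lay between 0.118 and 0.794 FPKM, with a median of 0.510. AT5G33390, a glycine-rich protein, had 3.31 to 4.43 FPKM in ecap-2 (median 3.69), against 0 to 0.154 FPKM in WT (median 0.119). AT1G34047, a defensin-like peptide of a family of small antimicrobial proteins, had 2.99 to 9.44 FPKM in ecap-2 (median 5.61), against 0 to 0.657 FPKM in WT, where 5 of 9 libraries listed it at 0. AT5G39120, a germin-like cupin, had 2.39 to 4.45 FPKM in ecap-2 (median 3.30) and was listed at 0 in 8 WT libraries and at 0.0852 FPKM in the other. PEN3, a triterpene synthase, had 1.77 to 8.04 FPKM in ecap-2 (median 2.68), against 0.0537 to 0.356 FPKM in WT (median 0.157). In all 6 genes the ecap-2 and WT libraries lay far apart at each time, and only PEN3 changed with JA against 0 h in ecap-2 at both times. The other calls against 0 h among the 6 were limited to AT5G33390 in ecap-2 at 1 h (adjusted p of limma 0.037). AT1G34047 was higher at 3 h than at 1 h in ecap-2, by 0.73 (adjusted p of limma 0.009).

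**Figure D2:**
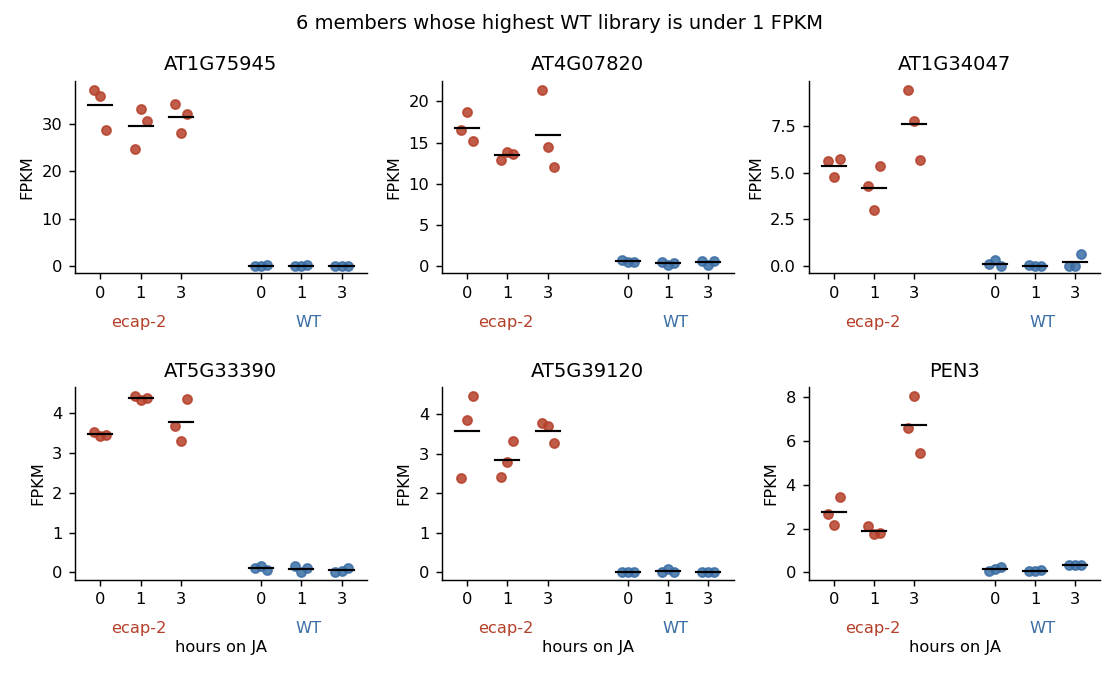
FPKM (vertical axis, linear) of the 6 genes that had under 1 FPKM in every WT library, by genotype and hours on JA. Points are libraries and bars group means. AT1G75945 lies between 24.7 and 37.1 FPKM in ecap-2 and at or near 0 in WT, and PEN3 has its highest values at 3 h in ecap-2.

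The listed genes next to these 6 varied. SKP1, 602 bases from AT1G75945, had 208 to 321 FPKM in ecap-2 and 174 to 236 FPKM in WT, and AT1G75920 on the other side stayed under 0.31 FPKM throughout. AT4G07825 beside AT4G07820 averaged 45.3 FPKM in ecap-2 and 33.8 FPKM in WT. AT4G07455, 324662 bases away on the other side, averaged 7.38 FPKM in ecap-2 and 11.6 FPKM in WT. Before AT1G34047, AT1G34040 averaged 8.39 FPKM in ecap-2 and 3.44 FPKM in WT. After it, AT1G34050 averaged 0.0167 and 0.0113 FPKM. AT5G33370, the nearest listed gene before AT5G33390, went the opposite way with 0.140 to 0.623 FPKM in ecap-2 and 2.57 to 3.95 FPKM in WT. Beside PEN3, the P450 gene AT5G36130 belongs to the set and AT5G36160 averaged 77.1 FPKM in ecap-2 and 68.0 FPKM in WT. AT5G39120 lies among other cupin genes, of which AT5G39110 averaged 0.353 FPKM in ecap-2 and 0.0215 FPKM in WT. AT5G39130 averaged 0.218 FPKM in ecap-2 and was listed at 0 in WT. AT5G39120 is also 97.0% identical over 99.4% of its transcript to AT5G39150, so reads of these genes may be split uncertainly.

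The 250 bases before the annotated starts of 3 of the 6 genes, those with the clearest separation at the highest levels or nearest a chromosome centre, are shown because their transcripts were present in one genotype and nearly missing in the other (RefSeq TAIR10.1). Capitals mark matches, on either strand, to 10 searched motifs: the G-box CACGTG and its variant CACGTT, the W-box forms TTGACC and TTGACT, the TGACG core, the GCC box GCCGCC, the ABRE form ACGTGTC, the evening element AAAATATCT, the MYB form GGTAGGT and TATAAA. The first is at chr1:28515917-28516166, minus strand, the second at chr4:4637451-4637700, minus strand, and the third at chr5:12661458-12661707, plus strand.
AT1G75945: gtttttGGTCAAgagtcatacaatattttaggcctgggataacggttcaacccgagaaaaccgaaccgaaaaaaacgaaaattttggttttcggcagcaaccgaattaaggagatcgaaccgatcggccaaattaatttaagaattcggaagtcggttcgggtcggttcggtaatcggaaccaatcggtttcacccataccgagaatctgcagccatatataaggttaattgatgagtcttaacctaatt
AT4G07820: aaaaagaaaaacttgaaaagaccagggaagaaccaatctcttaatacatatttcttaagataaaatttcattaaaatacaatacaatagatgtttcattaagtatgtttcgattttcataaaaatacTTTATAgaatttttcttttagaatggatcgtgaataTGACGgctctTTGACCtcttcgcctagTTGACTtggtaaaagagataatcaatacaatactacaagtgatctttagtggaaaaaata
AT5G33390: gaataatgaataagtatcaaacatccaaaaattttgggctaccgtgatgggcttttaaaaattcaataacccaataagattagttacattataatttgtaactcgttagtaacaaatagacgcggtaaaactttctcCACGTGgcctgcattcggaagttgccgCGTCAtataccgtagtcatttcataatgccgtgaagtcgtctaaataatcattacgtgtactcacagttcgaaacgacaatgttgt
AT1G75945 holds 1 match, to TTGACC on the other strand. AT4G07820 holds 4, to TATAAA on the other strand and then to TGACG and to both W-box forms. AT5G33390 holds 2, to CACGTG and to TGACG on the other strand. No motif is common to the 3 windows.

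Over all 146 genes the shares of windows with a motif are given beside those of all listed genes. CACGTG, the site type bound by MYC factors, was in 4.79% of the 146 windows and in 7.16% of the 22110 windows of listed genes. CACGTT was in 10.3% of the set and 7.91% of all, TTGACC in 9.59% and 12.3%, TTGACT in 21.2% and 19.1%, and TGACG in 15.8% and 19.1%. GCCGCC was in 0 of 146 and in 1.85% of all, ACGTGTC in 2.05% and 4.11%, AAAATATCT in 2.05% and 2.47%, GGTAGGT in 2.05% and 1.18%. TATAAA, the core of the TATA box, was in 56.2% of the set and 47.4% of all.

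The 146 genes lay close to the chromosome centres more often than tested genes did. Arabidopsis chromosomes have a gene-poor centre around the centromere and gene-rich arms, and the centre was placed here at the middle of the 2 Mb window with the fewest tested genes, at 14.9, 4.50, 13, 4.05 and 12.1 Mb on chromosomes 1 to 5. The median gene of the set started 3.47 Mb from its centre, against 8.24 Mb for all tested genes. Of the 146, 83 or 56.8% lay within 4 Mb of a centre, against 16.5% of tested genes, and 3.42% lay beyond 10 Mb, against 35.1%. Genes that were constantly lower in ecap-2 by the same thresholds, 370 with a position, did the opposite, with 12.2% within 4 Mb and 42.4% beyond 10 Mb.

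The share of tested genes that belong to the set fell off with distance at each step. It was 5.26% (27 of 513) within 2 Mb, 2.32% (56 of 2413) from 2 to 4 Mb, 0.851% from 4 to 6 Mb and 0.824% from 6 to 8 Mb. Farther out it was 0.367% from 8 to 10 Mb, 0.139% from 10 to 12 Mb and 0.0298% (1 of 3357) from 12 to 16 Mb. That last gene is AT1G75945, 13.6 Mb from its centre. The nearest are RAP2.9 and AT4G06744, neighbours on chromosome 4 that lie at its centre.

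All 5 chromosomes showed the pattern. Within 4 Mb of the centre the set held 2.45% of tested genes on chromosome 1, 3.46% on chromosome 2, 2.24% on chromosome 3, 2.04% on chromosome 4 and 4.26% on chromosome 5. Beyond 8 Mb it held 0.323%, 0.0698%, 0 of 1546 genes, 0.309% and 0.0917%. On chromosome 3 all 17 genes of the set started between 6.27 and 18.2 Mb. None lay within 1 Mb of AT3G58110, a region with 394 tested genes, and the nearest was AAE3 at 3.36 Mb.

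Genes outside the set leaned the same way, by much less. Their median genotype difference, ecap-2 minus WT on the log2(FPKM + 1) scale and averaged over the 3 times, was 0.12 within 2 Mb, 0.09 from 2 to 4 Mb and 0.07 from 4 to 6 Mb. It was 0.00 from 6 to 8 Mb, -0.03 from 8 to 10 Mb, -0.07 from 10 to 12 Mb and -0.10 from 12 to 16 Mb. The lean could be read in single libraries: the median of 2843 genes within 4 Mb minus that of 9225 genes beyond 8 Mb, each gene relative to its mean over all libraries, was 0.048 to 0.083 in the 9 ecap-2 libraries and -0.084 to -0.053 in the 9 WT libraries. That mean holds 9 libraries of each genotype, so a lean in 1 genotype largely sets the opposite sign in the other. The genotypes did not overlap at any time. Being a genotype contrast, this is a description too.

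**Figure D3:**
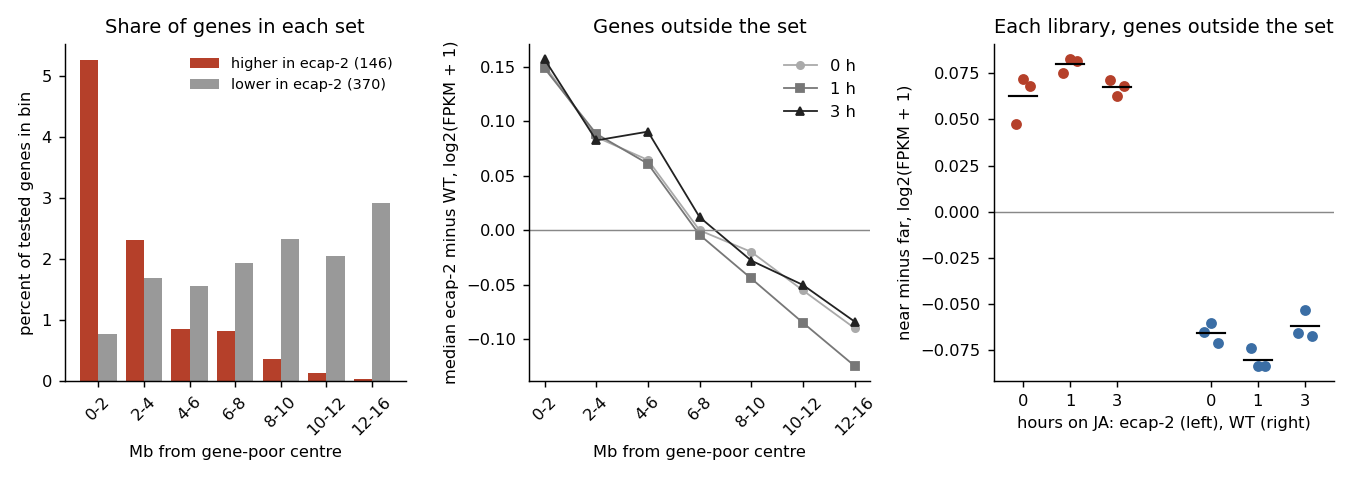
Left, percent of tested genes that belong to the 146 genes higher in ecap-2 or to the 370 lower in ecap-2, by distance from the gene-poor chromosome centre (Mb). Middle, median genotype difference of the genes outside the set of 146 by distance, 1 line a time. Right, median of genes within 4 Mb minus median of genes beyond 8 Mb in each library (points; bars, group means), ecap-2 to the left and WT to the right. The share of the higher set falls from 5.26% to 0.0298% with distance. The libraries of the genotypes lie on opposite sides of 0, a sign that largely follows from taking each gene relative to its mean over all libraries.

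Gene properties that differ along chromosomes or affect FPKM also moved with genotype. The genotype difference of genes outside the set was -0.15 at the median in the class of lowest GC content and 0.10 in that of highest, -0.12 in the class of lowest expression and 0.12 in that of highest, and 0.07 for short and -0.06 for long transcripts. Within each of these classes the genes near a centre were higher than those far from it, by 0.17 to 0.25 across 3 GC classes, 0.09 to 0.26 across 4 classes of expression and 0.16 to 0.18 across 3 length classes. When each library was corrected for GC content and transcript length, the medians by distance ran from 0.16 near the centre to -0.11 at the far end. The corrected values put 169 genes past the thresholds, of which 118 were among the 146, and 61.5% of the 169 lay within 4 Mb of a centre. The 146 genes themselves had a median GC content of 40.8%, against 41.3% for tested genes, and a median spliced length of 1347 bases, against 1718. They had a median of 2 exons, against 4, and 32.2% had a single exon, against 16.3%.

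Some members were neighbours. With at most 2 annotated genes between them, 26 of the 146 (17.8%) formed 12 groups of 2 or 3, and by the same measure 51 of the 372 genes constantly lower in ecap-2 (13.7%) lay in such groups. Chromosome 2 holds several: the MATE transporter genes AT2G04066, AT2G04090 and AT2G04100, the pair FLA7 and AT2G04795, the glycine-rich genes AT2G05510, GRP-3 and AT2G05540, and the pair AGP9 and AT2G14900. The others are EXT3 and AT1G21313, CSLC04 and AT3G28200, the nitrilases NIT2 and NIT3, AT4G06744 and RAP2.9, AT4G11190 and AT4G11211, AT5G35732 and AT5G35735, AT5G36130 and PEN3, and the lipid-transfer genes AT5G46890 and AT5G46900. AT1G21313 lies inside EXT3 on the opposite strand, and without stranded counting their reads cannot be told apart. Of the 146, 14 overlap another listed gene and 15 have a transcript at least 90% identical over at least 50% of their length elsewhere. The succinate dehydrogenase subunits SDH3-1 and SDH3-2, 99.9% identical, are one such pair, and their levels should be read as shared.

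Cell wall structural proteins had the highest summed level of the role groups. A role could be given to 87 of the 146 genes from their annotation and general knowledge, in groups formed after the values were known. Among them, 15 encode glycine-rich wall proteins, extensins, which cross-link in the wall, arabinogalactan proteins or fasciclin-like proteins, and together they summed to 3695 to 4885 FPKM in ecap-2 and 1440 to 1957 FPKM in WT. Annotated products with the words glycine-rich made up 6.85% of the set (10 genes) and 0.242% of tested genes. These words were matched in the annotation and need not mark a wall protein.

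GRP3S, the short isoform gene of glycine-rich protein 3, was the most abundant of all 146. It had 1717, 1346 and 1274 FPKM at 0 h, 1210, 1222 and 1399 FPKM at 1 h and 1810, 1514 and 1499 FPKM at 3 h in ecap-2, against 377, 301 and 509 FPKM, 580, 333 and 316 FPKM and 474, 522 and 471 FPKM in WT. Its genotypes were far apart and JA changed it in neither. GRP-3, which in Arabidopsis binds the wall-associated kinase WAK1, had 264 to 477 FPKM in ecap-2 (median 273) and 42.8 to 122 FPKM in WT (median 83.8). Its neighbours AT2G05510 and AT2G05540 had means of 75.4 and 188 FPKM in ecap-2, against 14.3 and 82.5 FPKM in WT. The 4 lie on 1 stretch of chromosome 2 from 1.97 to 2.03 Mb, 2.47 to 2.53 Mb from its centre, but did not follow JA together: AT2G05540 fell in both genotypes at 1 h, by 0.75 in ecap-2 and by 1.03 in WT on the log2 scale (adjusted p of limma 0.00019 and 6e-06), whereas GRP3S was not called.

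EXT3, an extensin needed for the wall of the new cell plate in embryos, had 1546, 1452 and 1745 FPKM at 0 h in ecap-2, against 693, 889 and 738 FPKM in WT. It fell on JA in both genotypes, at 3 h by 0.54 in ecap-2 and by 0.31 in WT (adjusted p 0.00097 and 0.041, limma). The arabinogalactan proteins AGP9 and AGP2, heavily glycosylated surface proteins, averaged 349 and 242 FPKM in ecap-2 and 183 and 119 FPKM in WT.

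Enzymes that rework wall polysaccharides formed a second group of 8. XTH4, a xyloglucan endotransglucosylase that cuts and rejoins hemicellulose chains, had 765 to 939 FPKM in ecap-2 (median 814) and 269 to 348 FPKM in WT (median 299), with no JA call. XTH31, of the same family, had 370, 307 and 277 FPKM at 0 h, 167, 168 and 172 FPKM at 1 h and 239, 229 and 196 FPKM at 3 h in ecap-2, against 133, 128 and 124 FPKM, 45.6, 55.1 and 41.9 FPKM and 73.5, 82.0 and 70.0 FPKM in WT. It fell at 1 h by 0.90 in ecap-2 and by 1.42 in WT (adjusted p 5e-06 and 1.8e-08, limma) and stayed higher in ecap-2, with ratios of means at 0, 1 and 3 h of 2.48, 3.56 and 2.94. The group also holds CSLC04, which makes the xyloglucan backbone, and PGIP1, which inhibits fungal polygalacturonases, at means of 68.9 and 220.5 FPKM in ecap-2, against 35.5 and 102 FPKM in WT. DGR2, a wall protein of the DUF642 family outside these groups, averaged 510.2 FPKM in ecap-2 and 227 FPKM in WT and fell in both genotypes at 3 h, by 0.72 in ecap-2 and by 0.56 in WT (adjusted p 4.9e-06 and 7.7e-05, limma).

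The 4 class III peroxidases, secreted enzymes that use hydrogen peroxide in the wall, summed to 816 to 945 FPKM in ecap-2 and 304 to 360 FPKM in WT. AT3G32980 made up most of that, with 585 to 658 FPKM in ecap-2 (median 630) and 187 to 235 FPKM in WT (median 220), a narrow spread in both. All 4 lie within 4 Mb of a centre. The 7 lipid-transfer family genes, small secreted proteins that bind lipids, summed to 620 to 893 FPKM in ecap-2 and 273 to 403 FPKM in WT, and only 1 lies within 4 Mb.

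Triterpene synthesis was represented by 2 synthases, each with 1 P450 gene near it. MRN1 makes marneral, and CYP71A16 oxidises the marneral product in Arabidopsis. MRN1 had 6.84, 7.83 and 8.83 FPKM at 0 h, 42, 50.8 and 31.7 FPKM at 1 h and 42, 42.4 and 35.7 FPKM at 3 h in ecap-2, against 0.798, 1.69 and 0.784 FPKM, 10.2, 11.0 and 7.31 FPKM and 6.23, 6.57 and 6.75 FPKM in WT. It was high in every ecap-2 library of a time and rose on JA in both genotypes, at 1 h by 2.25 ± 0.18 in ecap-2 and 2.34 ± 0.18 in WT on the log2 scale (± SE, adjusted p 5e-08 and 3.3e-08, limma). CYP71A16 averaged 27.5, 106 and 107 FPKM at 0, 1 and 3 h in ecap-2 and 10.2, 52.8 and 36.5 FPKM in WT and rose likewise, at 1 h by 1.90 ± 0.11 in ecap-2 and 2.27 ± 0.11 in WT (adjusted p 4.9e-10 and 4.7e-11, limma). Their responses did not pass the test for a difference between genotypes (adjusted p 0.98 and 0.56 at 1 h). CYP716A1, near PEN3, is not in the set and averaged 0.717 FPKM in ecap-2 and 0.888 FPKM in WT. CYP705A12, the next gene of the marneral cluster, is not in the set and averaged 44.3 FPKM in ecap-2 and 31.8 FPKM in WT.

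The windows before MRN1, at chr5:17053203-17053452 on the plus strand, and CYP71A16, at chr5:17033801-17034050 on the minus strand, are shown because the pair had large responses to JA and stood higher in ecap-2 throughout (TAIR10.1, 250 bases, same capitals).
MRN1: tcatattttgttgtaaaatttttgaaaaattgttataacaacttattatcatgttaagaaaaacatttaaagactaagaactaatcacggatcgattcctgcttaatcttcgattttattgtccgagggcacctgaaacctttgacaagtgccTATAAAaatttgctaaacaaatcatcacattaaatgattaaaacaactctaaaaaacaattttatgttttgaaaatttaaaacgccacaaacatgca
CYP71A16: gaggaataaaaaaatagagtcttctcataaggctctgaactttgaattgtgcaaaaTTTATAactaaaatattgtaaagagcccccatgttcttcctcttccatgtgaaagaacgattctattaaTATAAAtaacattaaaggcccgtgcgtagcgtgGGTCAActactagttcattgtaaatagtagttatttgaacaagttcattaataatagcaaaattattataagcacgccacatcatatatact
MRN1 holds 1 match, to TATAAA. CYP71A16 holds 3, to TATAAA on each strand and to TTGACC on the other strand. Neither window holds CACGTG, which was in 2 of the 36 windows (5.56%) of genes called higher on JA at 1 h in both genotypes.

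AT5G36130, the P450 gene beside PEN3, dipped at 1 h and then climbed. It had 13.8, 10.5 and 10.8 FPKM at 0 h, 2.67, 2.56 and 2.79 FPKM at 1 h and 28.1, 25.1 and 21.8 FPKM at 3 h in ecap-2, against 1.51, 1.70 and 1.2 FPKM, 0.311, 0.588 and 0.333 FPKM and 2.75, 3.35 and 2.79 FPKM in WT. The ratio of means stayed between 6.52 and 8.43. Its fall at 1 h was -1.78 in ecap-2 and -0.81 in WT on the log2(FPKM + 1) scale, a called difference of responses (-0.97 ± 0.17, adjusted p 0.019, limma) that was -0.43 with a pseudocount of 0.1 (adjusted p 0.79). The 4 thalianol genes, a triterpene cluster farther out on the same chromosome and not in the set, had ratios of means of 1.30 to 1.78, values looked up after those of MRN1 and PEN3 were known.

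Gibberellin genes were few and took different courses on JA. Gibberellins are growth hormones made by oxidases, removed by others and sensed through DELLA repressors. The set holds GA20OX5, a gibberellin 20-oxidase, GA2OX7, which inactivates gibberellins, the DELLA gene RGL1, and AT2G14900 and AT5G14920 of the gibberellin-regulated peptide family. This group, too, was formed after the values were known. All 5 rose at 3 h against 0 h in both genotypes, where 23.1% of tested genes rose in ecap-2 and 21.4% in WT, and 4 of 5 rose at 1 h in both, where 16.6% and 17.3% of tested genes rose. From 1 to 3 h GA20OX5, GA2OX7 and RGL1 fell in both genotypes, while AT5G14920, which was not called at 1 h, rose by 1.33 in ecap-2 and 1.46 in WT (adjusted p 1.6e-05 and 7.9e-06, limma). GA20OX5 and GA2OX7 are among the 14 genes under 3 FPKM at 0 h in ecap-2. RGL1 had 7.82, 5.52 and 6.24 FPKM at 0 h, 26.9, 21.3 and 23.4 FPKM at 1 h and 15.1, 14.1 and 11.6 FPKM at 3 h in ecap-2, against 2.53, 2.70 and 2.55 FPKM, 12.4, 11.4 and 11.6 FPKM and 6.20, 5.45 and 4.05 FPKM in WT. GA2OX7 peaked at 1 h as well, at a mean of 8.67 ± 2.83 FPKM in ecap-2 and 2.38 ± 0.890 FPKM in WT (SD, n = 3 each).

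Other enzymes and transporters followed. The 6 HXXXD-type acyltransferases, which attach acyl groups to alcohols and phenolics, summed to 146 to 221 FPKM in ecap-2 and 54.1 to 68.6 FPKM in WT. CYP707A2, which breaks down abscisic acid, had 6.54 to 18.5 FPKM in ecap-2 (median 8.93) and 0.992 to 2.97 FPKM in WT (median 1.37). The 4 MATE transporters, which export metabolites and toxins, all rose at 3 h in ecap-2 and 3 of them in WT, beside 23.1% and 21.4% of tested genes. AT2G04066, AT2G04090 and AT2G04100 of these 4 are the neighbours named above, and AT2G04090 and AT2G04100 are 92.4% identical, so their reads may be split uncertainly. NIT3, a nitrilase that can turn indole-3-acetonitrile into auxin, averaged 74.9, 179 and 210 FPKM at 0, 1 and 3 h in ecap-2 and 39.0, 78.7 and 83.6 FPKM in WT. UMAMIT17, a membrane transporter, had 30.5 to 34.2 FPKM at 0 h in ecap-2 and 5.34 to 7.75 FPKM in WT and fell on JA in both. The 8 transcription factor genes, among them AS2, WOX4, YAB5 and MYB112, were low to moderate, with ratios of means from 1.83 to 3.53.

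JA changed many of the 146 genes, and mostly in the same direction in both genotypes. At 1 h limma called 79 genes in ecap-2 (42 higher, 37 lower) and 75 in WT (42 higher, 33 lower), at an adjusted p under 0.05. That is 54.1% in ecap-2 and 51.4% in WT, where 33.6% and 33.9% of all tested genes were called. Of tested genes 16.6% rose and 17.0% fell in ecap-2, 17.3% rose and 16.7% fell in WT. At 3 h it called 96 in ecap-2 (69 higher, 27 lower) and 96 in WT (64 higher, 32 lower), 65.8% each, beside 45.2% and 41.5% of tested genes. The genes of the set had a median change at 3 h of 0.28 in ecap-2 and 0.21 in WT, against -0.01 and -0.00 for all tested genes. Rises made up 47.3% of the set in ecap-2 and 43.8% in WT, where 23.1% and 21.4% of tested genes rose, and falls 18.5% and 21.9%, where 22.2% and 20.1% of tested genes fell. The set and the tested genes are unlike, with a median level over 18 libraries of 19.4 and 12.5 FPKM. The choice also asked for libraries of the genotypes that lie apart, which favours genes of small spread. How much these add to the shares called was not tested.

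Counted without the 14 genes that were under 3 FPKM at 0 h in ecap-2, 31 of 132 rose at 1 h in ecap-2 (23.5%) and 34 in WT (25.8%), and 55 rose at 3 h in ecap-2 (41.7%) and 54 in WT (40.9%). All 14 rose at 3 h in ecap-2 and 10 of them in WT. This count was chosen after the data were seen.

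Calls were shared between genotypes in the set and among all tested genes. At 1 h 36 genes of the set were called higher in both, 85.7% of the higher calls in each genotype. Over all tested genes 75.5% of the higher calls in ecap-2 and 72.5% of those in WT were shared. At that time 30 genes of the set were lower in both, 81.1% of the lower calls in ecap-2 and 90.9% in WT. Over all tested genes these shares were 73.3% and 74.6%. At 3 h 58 were called higher in both, 84.1% of the higher calls of ecap-2 and 90.6% of those of WT, where over all tested genes 68.5% and 73.9% were shared. Another 26 were lower in both, 96.3% of the lower calls in ecap-2 and 81.3% in WT. Over all tested genes these shares were 62.5% and 68.9%. No gene of the set was called in opposite directions, as were 9 of 17835 tested genes (0.0505%) at 1 h and 60 (0.336%) at 3 h. At shares this low the absence says little. The choice also bounds how far the responses of the genotypes can part, so the sharing of calls is a description. In the set 27 genes (18.5%) were called in neither genotype at either time, against 32.4% of tested genes. From 1 to 3 h, 77 genes changed in ecap-2 (64 higher, 13 lower) and 70 in WT (44 higher, 26 lower), where 40.6% and 29.0% of all tested genes were called. Of tested genes 20.9% rose and 19.7% fell in ecap-2, 14.5% rose and 14.5% fell in WT.

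**Figure D4:**
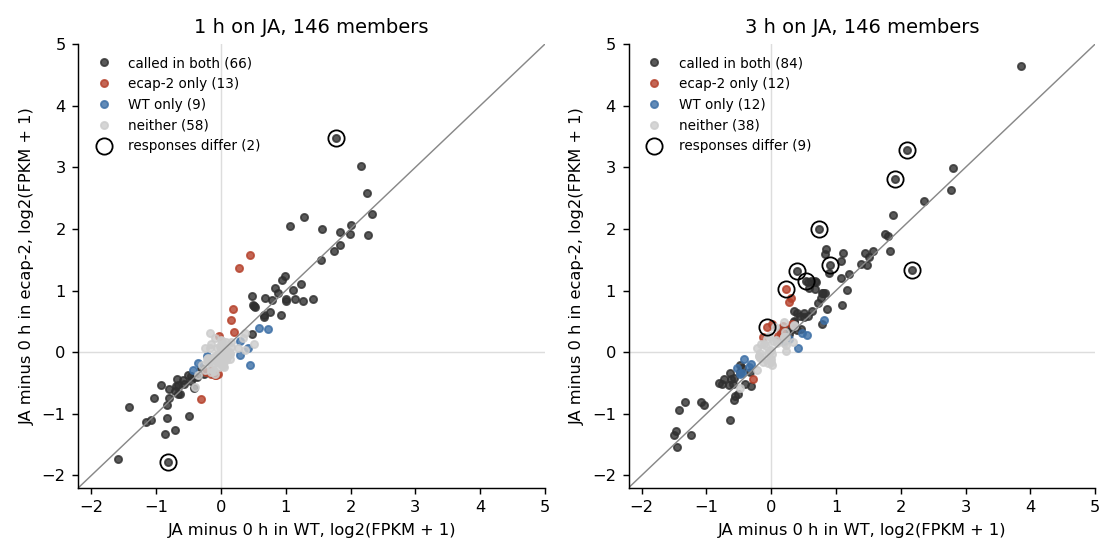
Change with JA against 0 h in ecap-2 (vertical axis) and in WT (horizontal axis) for the 146 genes at 1 h (left) and 3 h (right), log2(FPKM + 1). Colours mark where limma called the change, open rings the 2 and 9 genes whose responses differed between genotypes, and the diagonal equal responses. Most genes lie near the diagonal, and 8 of the 9 ringed genes at 3 h lie above it. An equal fold rise also lies above it on this scale, because every gene is lower in WT.

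The largest rise at 3 h in either genotype was that of AT5G36907, a gene of unknown function, which had 1.67, 2.54 and 2.41 FPKM at 0 h, 26.0, 28.9 and 20.3 FPKM at 1 h and 68.2, 86.0 and 83.6 FPKM at 3 h in ecap-2. In WT it had 0.0956, 0 and 0.106 FPKM, then 6.20, 2.58 and 3.19 FPKM, then 12.8, 22.9 and 10.13 FPKM. At 3 h its change on the log2(FPKM + 1) scale was 4.65 ± 0.27 in ecap-2 and 3.85 ± 0.27 in WT (adjusted p 1.6e-09 and 1.6e-08, limma). In fold terms the order was the reverse. The ratio of means fell from 32.8 at 0 h to 6.28 at 1 h and 5.19 at 3 h. WT at 0 h lay far under the pseudocount of 1, which shrinks the change in WT most. AT5G36907 is among the 14 genes under 3 FPKM at 0 h in ecap-2, as are PEN3 and CYP710A4. The P450 genes CYP71A19 and CYP81D1 and the MATE gene AT2G04066 rose by 2.62, 2.46 and 3.00 in ecap-2 and by 2.78, 2.36 and 2.81 in WT at 3 h. AT2G04066 is 99.3% identical to AT2G04080 over 78.9% of its transcript, and CYP71A19 overlaps another listed gene, so part of their reads may belong elsewhere. Zinc-binding dehydrogenase AT5G38000 rose late, by 1.69 from 1 to 3 h in ecap-2 and 1.49 in WT.

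Among the falls, AT2G14247, of unknown function, had 189, 126 and 130 FPKM at 0 h and 51.7, 39.1 and 39.8 FPKM at 1 h in ecap-2, against 80.4, 57.4 and 63.7 FPKM and 24.2, 20.6 and 19.5 FPKM in WT. It fell by 1.73 in ecap-2 and by 1.60 in WT (adjusted p 1.8e-07 and 4.9e-07, limma). AT2G04795 and AT2G25510, both of unknown function, fell at 3 h by 1.28 and 1.34 in ecap-2 and by 1.47 and 1.49 in WT. ATL15, a RING ubiquitin ligase, fell at 1 h by 1.14 in ecap-2 and by 1.16 in WT and was back near its 0 h level at 3 h, at 21.3 ± 1.57 FPKM in ecap-2 and 9.24 ± 0.810 FPKM in WT (SD, n = 3 each).

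A difference of the JA response between genotypes was called for few genes, and the choice limits what it can show, since a gene whose groups came together at any time could not be in the set. At 1 h limma called 2 of 146 (1.37%), beside 0.314% of tested genes, 1 upward in ecap-2 relative to WT and 1 downward (0.168% and 0.146% of tested genes). At 3 h it called 9 of 146 (6.16%), beside 2.42% of tested genes, 8 upward and 1 downward (1.30% and 1.13% of tested genes). The choice and the scale also tilt these differences. Every gene of the set is lower in WT, so an equal fold rise gives the smaller change there on the log2(FPKM + 1) scale. How much this adds to the upward calls was not tested, and the split is a description. The ratio of means at the 3 times spread by a median factor of 1.26 within a gene, and by under 1.5 in 122 genes.

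GA20OX5 differed at both times. It had 0.589, 0.840 and 0.852 FPKM at 0 h, 21.9, 19.6 and 15.0 FPKM at 1 h and 6.92, 6.32 and 4.98 FPKM at 3 h in ecap-2, against 0.334, 0.297 and 0.138 FPKM, 3.63, 3.63 and 2.72 FPKM and 1.45, 1.06 and 0.803 FPKM in WT. All ecap-2 libraries at 1 h exceeded all WT libraries at that time by more than 4 times. Its response exceeded that of WT by 1.70 ± 0.21 at 1 h and 1.26 ± 0.21 at 3 h (adjusted p 0.0022 and 0.0073, limma). With a pseudocount of 0.1 in place of 1 the differences were 1.16 and 1.07 and neither passed (adjusted p 0.3 and 0.11). Its 0 h levels were under 1 FPKM in all 6 libraries.

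CYP710A4, a sterol desaturase, is 95.7% identical to CYP710A3 over 88.2% of its transcript, so its reads may be split uncertainly. CYP710A4 was listed at 0 in all 3 WT libraries at 0 h and at 0.0539 to 0.217 FPKM in ecap-2. At 3 h it had 10.7, 12.6 and 7.33 FPKM in ecap-2 and 3.47, 3.51 and 2.92 FPKM in WT, a difference of responses of 1.18 ± 0.25 (adjusted p 0.019, limma) that was 0.42 with a pseudocount of 0.1 (adjusted p 0.72). AT5G35735, an auxin-responsive membrane protein gene, had 8.23, 8.65 and 8.65 FPKM at 0 h and 67.3, 77.9 and 53.3 FPKM at 3 h in ecap-2, against 4.77, 4.96 and 4.52 FPKM and 19.3, 21.1 and 21.2 FPKM in WT. The ecap-2 libraries thus drew away from WT, and the responses differed by 0.90 ± 0.19 (adjusted p 0.023, limma). The call was lost without WT 0 h replicate 2, WT 3 h replicate 1, ecap-2 0 h replicate 2 or ecap-2 3 h replicate 1 or 2 (adjusted p 0.059 to 0.067). GSR 1, a cytosolic glutamine synthetase, had 119, 109 and 117 FPKM at 0 h and 151, 170 and 140 FPKM at 3 h in ecap-2, against 65.1, 69.4 and 67.4 FPKM and 65.0, 64.8 and 63.0 FPKM in WT. It rose at 3 h in ecap-2 by 0.41 and had a change of -0.07 in WT (adjusted p 8.6e-05 and 0.46), and the difference was called (0.47 ± 0.09, adjusted p 0.016, limma), but not without ecap-2 0 h replicate 2 (0.44, adjusted p 0.053).

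AT4G11190, a dirigent-like gene of the family that guides lignan coupling, went the other way. It had 129, 144 and 152 FPKM at 0 h and 361, 387 and 328 FPKM at 3 h in ecap-2, against 21.9, 27.8 and 21.2 FPKM and 111, 125 and 94.0 FPKM in WT. It rose in both genotypes, by 1.33 in ecap-2 and 2.17 in WT, a difference of -0.84 ± 0.16 (adjusted p 0.014, limma), so its ratio of means narrowed to 3.25 at 3 h, against 6.00 at 0 h.

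**Figure D5:**
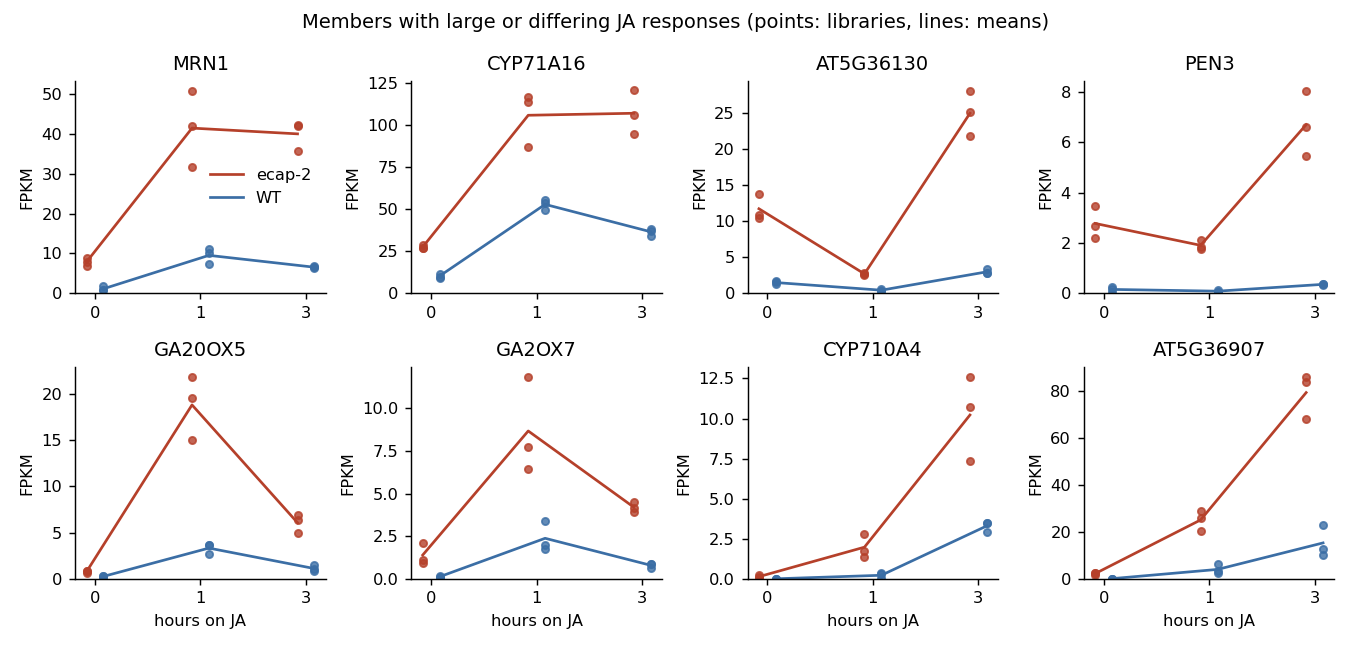
FPKM (vertical axis, linear from 0) at 0, 1 and 3 h on JA for 8 of the genes described, points for libraries and lines for group means, ecap-2 drawn left of WT at each time. MRN1 and CYP71A16 rise by 1 h in both genotypes, AT5G36130 has its lowest values at 1 h, and GA20OX5 reaches 15.0 to 21.9 FPKM in ecap-2 and 2.72 to 3.63 FPKM in WT at 1 h.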

How the data were processed

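RNA of whole seedlings was sequenced in 18 libraries, 3 for each of ecap-2 and WT at 0, 1 and 3 h. The deposited values are FPKM per gene, per the file headers. TopHat2, Cufflinks and TAIR10 are named in the submitters' processing notes, while versions and the strandedness of counting are not given in the sources used here. FPKM carry no read depth, so no count test was run. Names, coordinates and sequences came from the RefSeq TAIR10.1 annotation, which matched 22122 of 22209 listed genes and all 146 of the set.

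Genes with at least 1 FPKM in at least 3 libraries were tested (17835). limma 3.58.1 (R 4.3.3 and statmod 1.5.0) fitted 6 group means to log2(FPKM + 1) in 1 model of the 18 libraries, moderated with its trend and robust options. Residual df were 12 and prior df 4.56 at the median. Two-sided p-values were adjusted by the Benjamini-Hochberg method over the tested genes, separately for 8 comparisons, and called under 0.05. Fold changes on this scale understate those of low genes. The fit was tested on simulated data, 17835 genes with 200 changed by 1 on the log2 scale in 5 rounds. It recovered 93.5% of them for JA at 1 h in ecap-2, 95.7% at 3 h in ecap-2, 94.7% at 1 h in WT, 92.9% at 3 h in WT, and 82.4% and 83.6% for the difference of responses at 1 and 3 h.

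The set and the lists were chosen with earlier results of these data known. Genes named first were those with the 15 largest mean genotype differences, the 10 highest ecap-2 levels, up to 3 rises and 3 falls for each comparison, neighbours, and genes next to a threshold. Role groups, other genes named for a role or as neighbours, and the triterpene genes were chosen after their values were seen. No gene of the set belongs to the listed JA, flavonoid, salicylic acid, heat or cold lists. These hold 2 to 11 listed genes each, and 0.661% of nuclear genes passed the choice, so the absence says little. No gene of the set belongs to the anthocyanin lists either, but there the choice decided this in part. Of those lists, 5 late anthocyanin genes and 1 anthocyanin regulator passed the thresholds and were left out by their id. The epidermis, vascular and seed markers summed to 442 to 513, 147 to 200 and 2.05 to 63.1 FPKM in ecap-2 and to 428 to 565, 127 to 187 and 1.01 to 48.8 FPKM in WT. Near copies were found with blastn 2.17.0. Tables and plots were made with Python 3.11.15, pandas 2.3.3, numpy 2.4.6 and matplotlib 3.10.9.

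Replicate numbers recur in every group. Deviations of same-numbered libraries from their group means correlated over 0.1 in every pair for 2 of 15 pairs of groups, WT 0 h with WT 1 h (0.13 to 0.25) and WT 0 h with ecap-2 1 h (0.13 to 0.21). Within groups, libraries correlated at 0.984 to 0.992 (Pearson's r over genes) and 0 pairs were identical. Alternatives tried were other pseudocounts, filters, scalings, thresholds, centres, a GC and length correction, a replicate block and leaving out each library.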

Additional observations from a re-analysis of the deposited data

Results flagged for a closer look

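The JA response differed between genotypes by limma's test of the difference itself in 11 cases, given as ecap-2 minus WT on the log2(FPKM + 1) scale. The choice of the genes bounds these differences, since the genotypes had to stand apart at every time, and they are listed as values. For genes that rise, the scale also tilts them upward, because every gene of the set is lower in WT. Across the alternatives the adjusted p of limma stayed under 0.05 for AT4G11190 alone (0.0019 to 0.043). At 1 h the gibberellin oxidase GA20OX5 (AT1G44090) differed by 1.70 and the P450 gene AT5G36130 by -0.97, with adjusted p of 1.8e-05 to 0.3 and of 0.0006 to 0.79 across the alternatives.

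At 3 h GA20OX5 differed by 1.26, the sterol desaturase CYP710A4 (AT2G28860) by 1.18 and the acyltransferase AT2G25150 by 0.91. AT2G25150 had 6.96, 8.48 and 9.95 FPKM at 0 h and 21.9, 23.6 and 21.5 FPKM at 3 h in ecap-2, against 2.07, 3.51 and 1.87 FPKM and 3.17, 3.67 and 3.69 FPKM in WT. All ecap-2 libraries at 3 h lay above all at 0 h, while the WT libraries of the 2 times overlapped. It was called higher at 3 h in both genotypes, by 1.31 in ecap-2 and 0.40 in WT (adjusted p 1.6e-06 and 0.04, limma). AT5G35735 differed by 0.90, the triterpene synthase PEN3 (AT5G36150) by 0.79, the pectin acetylesterase AT5G45280 by 0.61, the nicotinamidase NIC3 (AT5G23220) by 0.49 and the glutamine synthetase GSR 1 (AT5G37600) by 0.47. PEN3 had ratios of means of 18.7 at 0 h and 19.1 at 3 h, so its fold change was nearly equal in the genotypes. Its difference exists on the log2(FPKM + 1) scale, where WT lay under the pseudocount of 1. Across the alternatives the adjusted p of limma reached 0.11 for GA20OX5, 0.72 for CYP710A4, 0.089 for AT2G25150, 0.067 for AT5G35735, 0.67 for PEN3, 0.061 for AT5G45280, 0.071 for NIC3 and 0.053 for GSR 1. The dirigent-like gene AT4G11190 differed by -0.84, its change being larger in WT.

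NIC3 and AT5G45280 had their highest WT levels at 1 h and stayed high at 3 h in ecap-2. NIC3 averaged 22.4, 65.0 and 61.0 FPKM at 0, 1 and 3 h in ecap-2 and 10.3, 32.1 and 20.3 FPKM in WT. AT5G45280 averaged 62.8, 130.3 and 140.4 FPKM in ecap-2 and 33.0, 59.96 and 48.3 FPKM in WT.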

How the results depend on the processing

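Of 47 tests of named genes under 1356 alternative values, 1305 kept their call, 51 lost it and 0 changed sign. The lost ones were differences of response, apart from the change of AT2G25510 from 1 to 3 h in WT. Counts of response differences depended most on the processing. The shares of all tested genes under the same alternatives are not given here, so these counts say nothing of an excess over them. With a pseudocount of 0.1, 0 genes were called at 1 h and 5 at 3 h, with 5 the counts were 8 and 22, with a replicate block 4 at 1 h, and with only the libraries compared 1 at 1 h. The cause was not tested. Without the 14 members under 3 FPKM at 0 h in ecap-2, left out after seeing the data, the counts were 1 at 1 h and 6 at 3 h. Leaving out 1 library gave 1 to 5 at 1 h and 2 to 14 at 3 h. At 1 h the count was 5 without ecap-2 1 h replicate 3, 4 without ecap-2 3 h replicate 3, and 1 without WT 1 h replicate 2 or ecap-2 1 h replicate 2. At 3 h it was 14 without ecap-2 0 h replicate 1, 2 without ecap-2 0 h replicate 2, 3 without ecap-2 3 h replicate 1 or 2, and 5 without WT 0 h replicate 2, WT 3 h replicate 1 or WT 3 h replicate 3. The difference of AT4G11190 at 3 h kept its call throughout (adjusted p 0.0019 to 0.043), whereas that of GA20OX5 at 1 h ranged from 1.8e-05 to 0.3. Counts of JA calls stayed within 1.5 times, and the replicate block called 77 genes on JA at 1 h in WT, against 75.

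The number of genes past the thresholds was 457 with the lower fold threshold tried, 42 with a fold of 2, 86 after rescaling to a common total and 85 by the nuclear total, and 145 to 165 without 1 library. Their share near a centre was 45.3% with the lower fold threshold and 53.6% to 64.3% under 7 other choices made after seeing the data. The median genotype difference at 0 h was 1.27 and 0.86 with pseudocounts of 0.1 and 5 and 1.01 after either rescaling, at 1 h 1.27, 0.88, 1.07 and 1.06, and at 3 h 1.02 with a pseudocount of 5 and 1.06 after either rescaling. Read depth is unknown, which limits what can be said of genes listed at 0.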
